A study of Mus musculus with 24 samples.

Results

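The 4 intervals with the highest ratio of H2AX reads to input reads in the mouse genome were examined together with their surroundings. Reads had been counted in bins of 100 kb, and each lead bin was taken with the 5 bins on either side, which gave 44 of the 25703 bins tested (27268 in the table). The lead bins lay at Sytl2 and Tmem126b on chromosome 7 (90400001 to 90500000, mm10), at a stretch of chromosome 14 without a protein-coding gene (45800001 to 45900000), at Srgap1 on chromosome 10 (121700001 to 121800000) and at Hsd17b11, Nudt9 and Sparcl1 on chromosome 5 (104000001 to 104100000). They were selected on the measured H2AX/input ratio, so their ratios to input are given as a description with no test, and only the neighbours and the differences between groups were tested. A value belongs to a whole bin and cannot be assigned to one gene in it.

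The libraries came from primary mouse embryonic fibroblasts (MEFs) of strain C57BL6, a short-term culture of connective-tissue cells. Female and male cultures were either wild type (WT) or SIRT7-KO (KO), and all of them, WT included, had received 5 Gy of X-rays and 30 min of recovery, so no unirradiated group enters any comparison. Chromatin immunoprecipitation with an antibody against H2AX, immunoprecipitation with an antibody against gH2AX, and input DNA were sequenced in each of the 4 combinations of sex and genotype, with 2 libraries per group (24 libraries, 12 groups). Whether libraries with the same sex, genotype and antibody stem from different embryos or cultures is not in the labels, so the p-values measure only the spread between these libraries, and a KO effect cannot be told apart from a difference between the cultures used.

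H2AX is a variant of histone H2A that is built into nucleosomes throughout the genome. Kinases activated by DNA double-strand breaks phosphorylate it near its C-terminus, and this form, gH2AX, spreads over long stretches of chromatin around a break and recruits repair factors. SIRT7 is a nuclear NAD-dependent deacetylase of the sirtuin family that acts on chromatin and has been linked to nucleolar function and DNA repair.

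Library totals, in M (1e6) reads, were 66.9 to 250.2 for H2AX, 84.5 to 212 for gH2AX and 92.4 to 269 for input. Sequenced DNA holds no markers of a cell type, so the fibroblast label could not be checked. Levels are given as normalised read counts scaled by library size (CPM, reads per 1e6), and the median autosomal bin held 37.5 CPM in H2AX, 37.2 in gH2AX and 37.0 in input. The 4 lead bins held 4732 to 51111 reads per library, for which the counting error is at most 1.45%.

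The lead bin at Sytl2 contained the genes Ccdc89, Crebzf (a bZIP transcription factor), Tmem126a and Tmem126b (mitochondrial proteins, the latter a complex I assembly factor) in full, 10.7 kb of Sytl2 (a Rab27 effector in vesicle trafficking) and the first 23.8 kb of the annotated interval of Dlg2 (a synaptic scaffold protein). At Srgap1, the bin held BC048403 and 19.01 kb of Srgap1, which encodes a GTPase-activating protein of Slit-Robo signalling. At Hsd17b11, it held 21.8 kb of Hsd17b11 (a dehydrogenase of lipid droplets), the whole of Nudt9 (an ADP-ribose pyrophosphatase) and Gm17660, and 20.9 kb of Sparcl1 (a secreted matricellular protein related to SPARC). The chromosome 14 bin held 1 annotated feature, the pseudogene Gm8317 (45858055 to 45858546), and is called the Gm8317 bin in the plots.

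Of the genes in the lead bins, 8 had a promoter sequence (250 bases before to 50 after the start, RefSeq, GRCm38.p6) inside the bin. Those of Tmem126b, Hsd17b11 and Nudt9 are shown because these genes name the intervals and the sequences share a bin with the extra reads. None is shown for Sytl2 or Sparcl1. Capitals mark GC boxes, searched as GGGCGG and its reverse complement CCGCCC, so both strands are covered by the pair. Each sequence reads 5′ to 3′ on the strand of its gene.
Tmem126b, chr7:90475946-90476245, minus strand: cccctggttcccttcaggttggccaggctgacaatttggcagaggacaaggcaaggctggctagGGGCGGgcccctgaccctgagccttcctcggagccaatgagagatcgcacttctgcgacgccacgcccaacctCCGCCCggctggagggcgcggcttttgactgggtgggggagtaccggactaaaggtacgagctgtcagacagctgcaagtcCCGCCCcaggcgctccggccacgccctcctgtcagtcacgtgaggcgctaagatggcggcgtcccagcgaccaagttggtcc
Hsd17b11, chr5:104021747-104022046, minus strand: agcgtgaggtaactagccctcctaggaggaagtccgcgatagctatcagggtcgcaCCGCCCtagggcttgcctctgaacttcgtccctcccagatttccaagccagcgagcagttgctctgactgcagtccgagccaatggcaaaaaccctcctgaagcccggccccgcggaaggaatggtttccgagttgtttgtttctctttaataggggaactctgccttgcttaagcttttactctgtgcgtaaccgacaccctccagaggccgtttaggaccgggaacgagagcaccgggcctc
Nudt9, chr5:104046614-104046913, plus strand: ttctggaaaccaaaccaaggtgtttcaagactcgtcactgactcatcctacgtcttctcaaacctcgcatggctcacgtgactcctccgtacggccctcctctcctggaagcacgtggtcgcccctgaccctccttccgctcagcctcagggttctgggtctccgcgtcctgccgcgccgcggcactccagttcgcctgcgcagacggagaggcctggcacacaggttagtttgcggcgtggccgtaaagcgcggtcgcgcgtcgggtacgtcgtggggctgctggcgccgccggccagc

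The Tmem126b promoter held 21 CpG dinucleotides, 65.7% G and C bases and 3 GC boxes, the Hsd17b11 promoter 18 CpG, 57.0% and 1 GC box, and the Nudt9 promoter 32 CpG, 65.0% and no GC box. The other 5 promoters inside lead bins held 3 CpG (Ccdc89), 5 (Gm17660), 20 (Crebzf), 23 (Tmem126a) and 34 (BC048403), with 1 GC box each in Crebzf and BC048403. Over the 32851 promoters of the same table the median was 7 CpG (quartiles 3 and 20), and 35.7% held a GC box. The Srgap1 promoter, with 37 CpG and 3 GC boxes, lay outside the lead bin. Counts per 100 kb cannot place the reads on or off these windows.

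The lead bins stood above the bins on either side in every kind of library. The mean over the 8 H2AX libraries was 246 CPM in the Sytl2 bin, 178 in the chromosome 14 bin, 137 in the Srgap1 bin and 118 in the Hsd17b11 bin. The corresponding gH2AX levels were 150.0, 115, 89.8 and 84.2 CPM, and the input levels 80.4, 67.3, 54.7 and 54.3 CPM. All 3 kinds of library were therefore above the genome median at the 4 positions, input by 2.17, 1.82, 1.48 and 1.47 times, and the order of the 4 bins was the same in H2AX, gH2AX and input. In each of the 24 libraries each lead bin lay above all 10 of its neighbours.

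The log2 ratio of H2AX to input was 1.59 ± 0.02 (SE) in the Sytl2 bin, 1.38 ± 0.02 in the chromosome 14 bin, 1.31 ± 0.02 in the Srgap1 bin and 1.11 ± 0.02 in the Hsd17b11 bin. The log2 ratio of gH2AX to input was lower, at 0.90, 0.77, 0.71 and 0.63, which placed the 4 bins at ranks 10, 13, 20 and 65 of all bins in that ratio. The log2 ratio of gH2AX to H2AX was -0.69, -0.61, -0.59 and -0.48, the 3 lowest values among all bins and the 39th lowest for the Hsd17b11 bin. The rule favours high H2AX, the denominator of this ratio, so low ranks in it are favoured by the choice of bins. Of the bins just outside the rule in the ranking of H2AX/input, 3 had 0.98 (Rbm19, chromosome 5, 120100001), 0.88 (Arrdc5, Uhrf1 and Kdm4b, chromosome 17, 56300001) and 0.87 (Ajap1, chromosome 4, 153400001). The 4 bins next in that ranking had 0.80 to 0.96 of the median input, in contrast to the 1.47 to 2.17 of the lead bins.

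**Figure D1:**
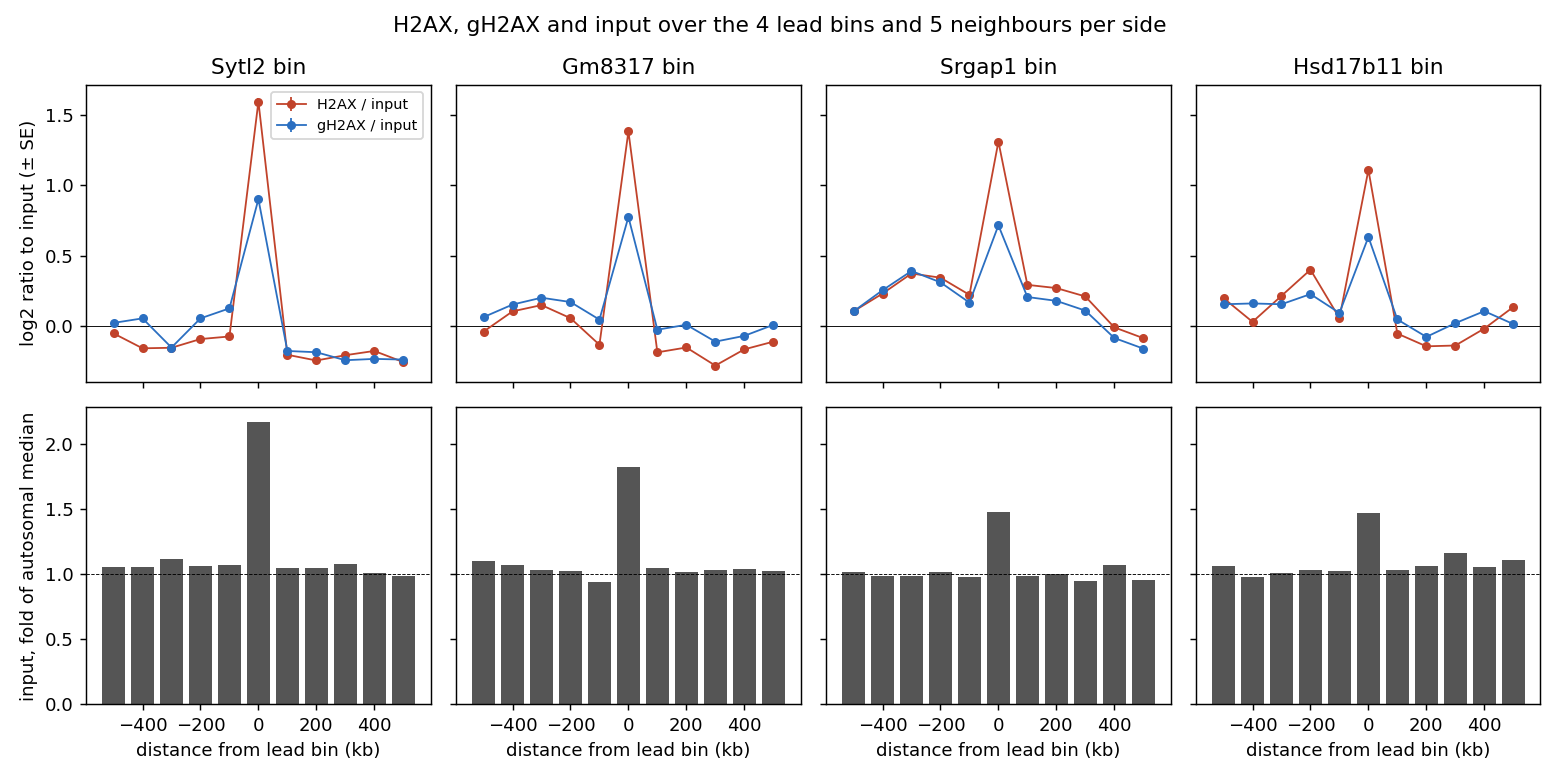
Upper panels give the log2 ratio of H2AX (red) and gH2AX (blue) to input, with SE, over the 11 bins of each locus, plotted by distance from the lead bin in kb, and lower panels the input level as a multiple of the autosomal median. Each lead bin is a single-bin step in all 3 kinds of library, and the 10 neighbours of each locus stay between -0.28 and 0.40 in H2AX/input.

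The neighbours, which were chosen by position, had far lower ratios than the lead bins, and their direction differed between loci and marks. Of the 40 neighbours, 16 were higher in H2AX than in input at an adjusted p under 0.05 (edgeR quasi-likelihood test, Benjamini-Hochberg over all bins), against 44.9% of all bins. In the other direction 21 of 40 were lower, against 11439 of all 25703 bins. For gH2AX 23 of 40 were higher, against 41.5% of all bins, and 11 were lower, against 11608 of all 25703 bins. All 10 neighbours at Sytl2 were lower in H2AX than in input, while 8 of 10 at Srgap1 were higher, 3 of 10 on chromosome 14 and 5 of 10 at Hsd17b11. For gH2AX 3 of 10 were higher at Sytl2, 8 at Srgap1, 5 on chromosome 14 and 7 at Hsd17b11.

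At Sytl2 the neighbours ranged from -0.25 in the farthest Dlg2 bin (90900001) to -0.05 in the bin of Ccdc81, Hikeshi (a carrier of HSP70 into the nucleus) and Eed (a core subunit of Polycomb repressive complex 2). The bin that holds most of Sytl2 itself (90300001 to 90400000) adjoined the lead bin and had an H2AX/input of -0.07 and a gH2AX/input of 0.13. The clathrin assembly gene Picalm lay in bins at -0.15 and -0.09. On chromosome 14 the highest neighbour held Fermt2 (kindlin-2, an integrin activator) and Ddhd1 (a phospholipase), at 0.15, and the lowest, at -0.28, held no protein-coding gene. Other neighbours there were the bin of Ero1a, Psmc6, Styx and Gnpnat1 at -0.04 and that of the growth factor Bmp4 at -0.11.

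Around Srgap1 the highest neighbour held Rassf3 at 0.37, followed by 0.34 in the bin of Tbk1 (a kinase of innate immunity) and Xpot (the tRNA exportin). The bin with D930020B18Rik, which adjoins the lead bin, was at 0.22. The remaining body of Srgap1 filled 3 bins at 0.29, 0.27 and 0.21, the last of them shared with Rxylt1, well below the 1.31 of the lead bin that holds 7.12% of the gene. At Hsd17b11 the highest neighbour held Aff1 (a scaffold of the super elongation complex) and Klhl8, at 0.40, and the lowest held Dmp1 and Ibsp, at -0.14. The remainder of Hsd17b11 and the related gene Hsd17b13 lay in a bin at 0.06, and the remainder of Sparcl1, with Dspp and Dmp1, in a bin at -0.05. The bins of Mepe and of Spp1 and Pkd2, which follow in the cluster of secreted bone and tooth phosphoproteins, were at -0.14 and -0.02. The other 3 bins before the lead bin held Ptpn13 at 0.20, Slc10a6, 1700016H13Rik and Aff1 at 0.03 and Aff1 alone at 0.21, and the last bin after it, with Pkd2, Thoc2l and Zfp33b, was at 0.14. Input in all 40 neighbours lay between 34.8 and 43.0 CPM.

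Relatives and partners of the member genes are described by the same ratio. The lead bins were chosen as the highest of all bins, so no bin outside them could reach their values. Sytl2, Srgap1 and Hsd17b13 are counted in the lists by neighbour bins of the lead bins. The Sytl family with Rab27 and its other effectors had a median H2AX/input of 0.26 over 9 bins, with 5 higher and 4 lower than input. Over all 25703 bins the median was 0.0015, with 44.9% called higher and 11439 bins called lower. For Slit-Robo signalling the median was 0.22 over 11 bins (8 higher, 3 lower), for the SPARC family 0.25 over 7 bins outside the lead bins (6 higher, 1 lower), for the 17-beta-hydroxysteroid dehydrogenases 0.16 over 10 (10 higher, 0 lower), for the Nudix hydrolases 0.24 over 20 (17 higher, 2 lower) and for complex I assembly 0.19 over 9 (7 higher, 1 lower). The highest value outside the lead bins was 0.67, in the bin of Nudt14, and Rph3a, a Rab effector of synaptic vesicles, was at 0.57. Robo1 and Robo2, the Slit receptors, were among the lowest at -0.44 and -0.33.

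Levels in single libraries were compared next. In the Sytl2 bin the 2 H2AX libraries held 261 and 329 CPM in female WT, 218 and 243 in female KO, 168 and 195 in male WT and 232 and 323 in male KO. In the chromosome 14 bin the values were 189 and 232 in female WT, 160.4 and 175 in female KO, 125 and 143 in male WT and 169 and 231 in male KO. By their means, female WT and male KO were the high groups and male WT the low group in both bins, and KO and WT did not overlap within either sex. In the Srgap1 bin the H2AX levels were 144 and 176 CPM in female WT, 124 and 136 in female KO, 100.1 and 115 in male WT and 130.4 and 172 in male KO. In the Hsd17b11 bin they were 122 and 147, 107 and 117, 90.7 and 100.2, and 114 and 148 CPM in the same order of groups. The order of the groups was thus shared by the 4 bins, and the libraries of each H2AX group lay far apart compared with other bins. The mean difference between the libraries of a group was 0.30 (log2) in the Sytl2 bin, 0.27 on chromosome 14, 0.25 at Srgap1 and 0.23 at Hsd17b11, which rank 4, 5, 7 and 9 among 25703 bins, against a median of 0.04.

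**Figure D2:**
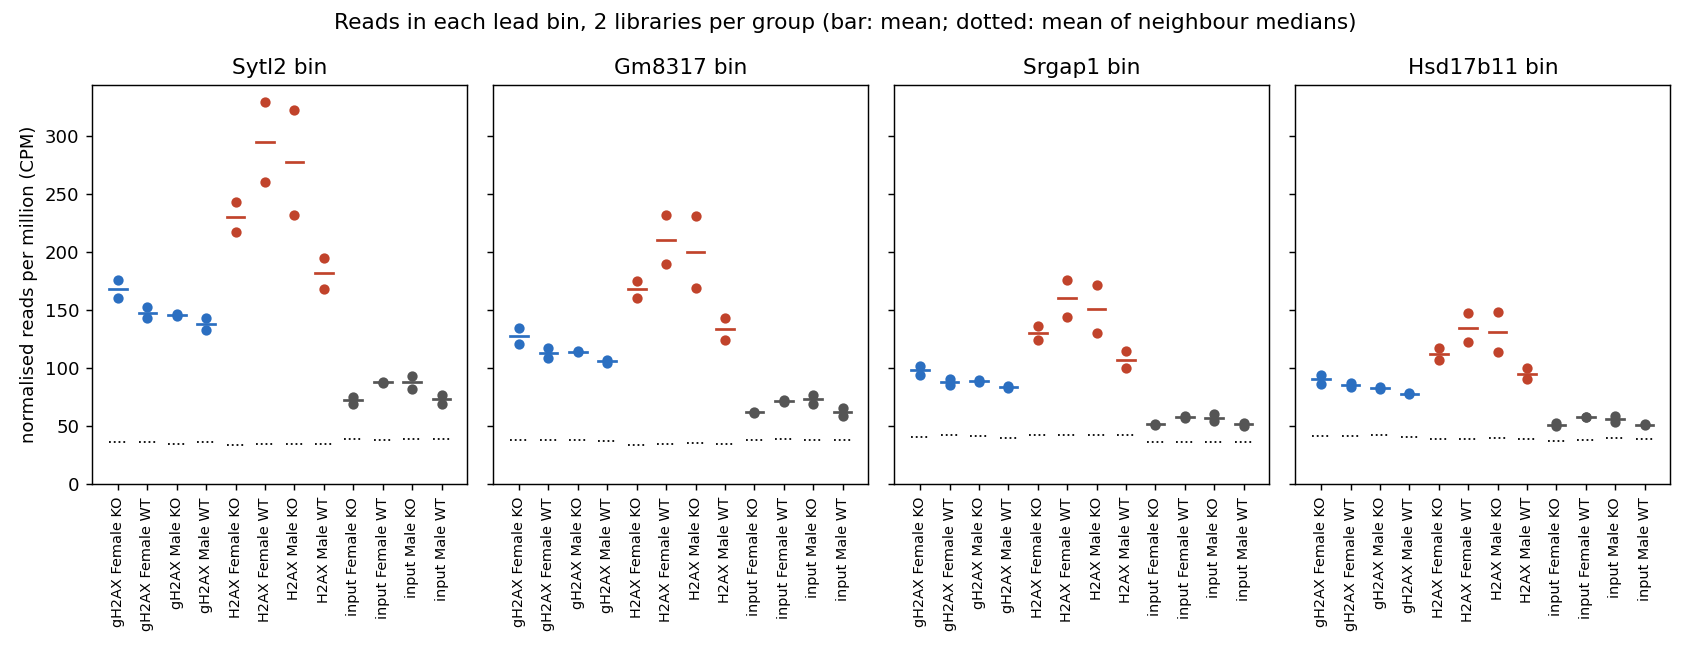
Normalised reads (CPM) in each lead bin for the 24 libraries, with 2 points and a bar for the mean per group and a dotted line for the mean of the neighbours' medians. In H2AX the means of female WT and male KO lie above those of female KO and male WT in each bin, and the dotted lines lie between 34.0 and 42.9 CPM.

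With edgeR's default fit, which shares the estimate of spread across bins, H2AX in KO relative to WT was lower in females and higher in males in the 4 lead bins. The log2 change in females was -0.36 ± 0.06 (SE, adjusted p = 4.10e-05) in the Sytl2 bin, -0.33 ± 0.06 on chromosome 14, -0.30 ± 0.05 at Srgap1 and -0.27 ± 0.05 at Hsd17b11. In males it was 0.61 ± 0.06 (adjusted p = 8.52e-13), 0.57 ± 0.06, 0.48 ± 0.05 and 0.45 ± 0.05. These 4 bins were the only ones of the 44 called in females, where 0.152% of all bins were called, and in males, where 0.191% were. The difference between the KO effects of the sexes, tested as an interaction, was -0.97 ± 0.08, -0.90 ± 0.08, -0.79 ± 0.07 and -0.71 ± 0.07, with 4 of 44 called against 0.272% of all bins. None of these H2AX calls held when the fit let single bins keep a larger spread of their own (edgeR's robust option). The adjusted p of the lead bins was then 0.96 in females, 0.64 to 0.67 in males and 0.65 to 0.67 for the interaction, and DESeq2 called none of them either. Leaving out either replicate 1 of female KO or replicate 2 of female WT left 0 of 44 called in females by the default fit. Over the fits that left out 1 library, the change in the Sytl2 bin was -0.52 to -0.18 in females and 0.36 to 0.83 in males.

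Input DNA moved in the same directions in the lead bins. The 2 input libraries held 87.4 and 88.4 CPM in female WT, 69.4 and 75.5 in female KO, 69.0 and 77.3 in male WT and 82.5 and 93.4 in male KO for the Sytl2 bin. For the chromosome 14 bin they held 70.7 and 72.5, 61.9 and 62.4, 59.1 and 65.9, and 69.5 and 76.8 CPM in the same order. Female WT and male KO were again the high groups, without overlap between KO and WT within a sex. In the Srgap1 bin input was 57.0 and 58.6, 51.1 and 52.4, 50.3 and 53.2, and 54.3 and 60.4 CPM, and in the Hsd17b11 bin 57.8 and 58.3, 50.2 and 52.7, 51.0 and 52.1, and 53.6 and 58.8 CPM. The log2 change of input in KO females was -0.28 ± 0.03, -0.20 ± 0.03, -0.16 ± 0.03 and -0.17 ± 0.03 in the order Sytl2, chromosome 14, Srgap1 and Hsd17b11 (4 of 44 called, against 0.183% of all bins). In KO males it was 0.27 ± 0.03, 0.23 ± 0.03, 0.16 ± 0.03 and 0.13 ± 0.03 (4 of 44 called, against 0.222%). With the robust option the calls at Srgap1 and Hsd17b11 held in both sexes and those at Sytl2 and chromosome 14 did not, and DESeq2 called only the Hsd17b11 bin in females and none in males. In the default fit 2 of 44 were called without female KO replicate 1, and, in males, 2 without KO replicate 2 or without WT replicate 1.

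The gH2AX levels followed another order of groups. The Sytl2 bin held 143 and 153 CPM in female WT, 160.5 and 176 in female KO, 133 and 143 in male WT and 146 and 145 in male KO, and the chromosome 14 bin 109 and 117, 121 and 135, 104 and 107, and 115 and 114. Female KO was the highest group and male WT the lowest, and the spread within a group was smaller than in H2AX. The Srgap1 bin held 85.7 and 91.0, 94.2 and 102, 83.2 and 85.1, and 88.0 and 89.5 CPM in the same order, and the Hsd17b11 bin 83.7 and 87.1, 86.6 and 94.1, 77.8 and 78.4, and 82.3 and 83.9. KO and WT did not overlap within a sex except in the Hsd17b11 bin in females.

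In females gH2AX rose in KO by 0.19 ± 0.03 in the Sytl2 bin (adjusted p = 7.74e-07), 0.17 ± 0.03 on chromosome 14 and 0.15 ± 0.03 at Srgap1. The Hsd17b11 bin, with 0.08 ± 0.03, did not pass the test (adjusted p = 0.218). That made 3 of 44 bins, against 1.01% of all bins, and the robust option kept the 3 calls. DESeq2 kept the call at Srgap1 alone. With the dependence of the change on a bin's enrichment removed by a smooth curve, the Hsd17b11 bin was called as well, at 0.14 ± 0.03. Leaving out replicate 2 of female KO gave a count of 0, and leaving out replicate 1 of female WT a count of 1. In males the 4 lead bins were called higher, by 0.08 ± 0.03, 0.11 ± 0.03, 0.08 ± 0.03 and 0.09 ± 0.03. DESeq2 ended the calls at Sytl2, chromosome 14 and Srgap1 (adjusted p = 0.369, 0.156 and 0.0740) and kept that at Hsd17b11 (0.0353). The male gH2AX comparison called 44.7% of all bins and 19 of the 44, so a call there says little about a bin. When that dependence was removed in males, the direction at the lead bins turned, to -0.18 in the Sytl2 bin (adjusted p = 1.22e-06), -0.11 on chromosome 14, -0.13 at Srgap1 and -0.10 at Hsd17b11. The curve was fitted on gH2AX/input over autosomal bins. The lead bins rank 10, 13, 20 and 65 in that ratio, so few bins of like enrichment define the curve there. In the default fit, leaving out 1 male library left 4 to 12 of the 44 called, 4 of them without WT replicate 1, 7 without KO replicate 2 and 12 without either of the others.

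Among the neighbours, the male gH2AX comparison called 10 bins higher, by 0.09 to 0.15, and 5 lower. The largest changes were a fall by 0.15 ± 0.04 in the farthest Dlg2 bin (90900001), a rise of 0.15 ± 0.03 in the Rassf3 bin (121400001) and a fall by 0.14 ± 0.04 in another Dlg2 bin (90700001). The 5 lower bins were 4 Dlg2 bins and 1 Picalm bin, all next to Sytl2. For gH2AX the interaction called 15 of 44 bins (5 higher, 10 lower, against 40.5% of all bins), with 0.11 ± 0.04 in the Sytl2 bin (adjusted p = 0.0318) and no call in the other 3 lead bins. In DESeq2 the Sytl2 bin was not called (adjusted p = 0.382). With the dependence on enrichment removed, the interaction was 0.44, 0.36, 0.35 and 0.24 in the lead bins, all called, so the result for gH2AX in males and for the interaction rests on how that dependence is treated.

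Female and male libraries were also compared over both genotypes. The 44 bins are autosomal, whereas the shares of all bins include chromosome X, of which male cells carry 1 copy. Of the 25703 bins tested, 24033 were autosomal. Over all bins, 1765 of the 1838 input calls were higher in females. How many of the calls lie on X was not counted. H2AX was 0.22 ± 0.04, 0.20 ± 0.04, 0.18 ± 0.04 and 0.14 ± 0.04 higher in females in the lead bins (5 of 44 called, against 10.1% of all bins). The robust option ended these lead calls (adjusted p = 0.55 to 0.63) and left 1 of 44. That bin count was 2 without female WT replicate 2 and 3 without male WT replicate 1 in the default fit. The fifth bin called, with Fermt2 (45400001), was lower in females by 0.09 (-0.09 ± 0.02). gH2AX was 0.16 ± 0.02, 0.13 ± 0.02, 0.11 ± 0.02 and 0.13 ± 0.02 higher in females (4 of 44, against 8.09%), also with the robust option. DESeq2 ended the call on chromosome 14 (0.13, adjusted p = 0.0607) and kept the other 3. In input 0 of the 44 bins were called by edgeR or DESeq2, against 7.15% of all bins in edgeR. At an unadjusted p under 0.05 in edgeR there was 1 of 44, against 12.6% of all bins. The lead bins differed by -0.03 to 0.01. 1 bin was called without male WT replicate 1.

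**Figure D3:**
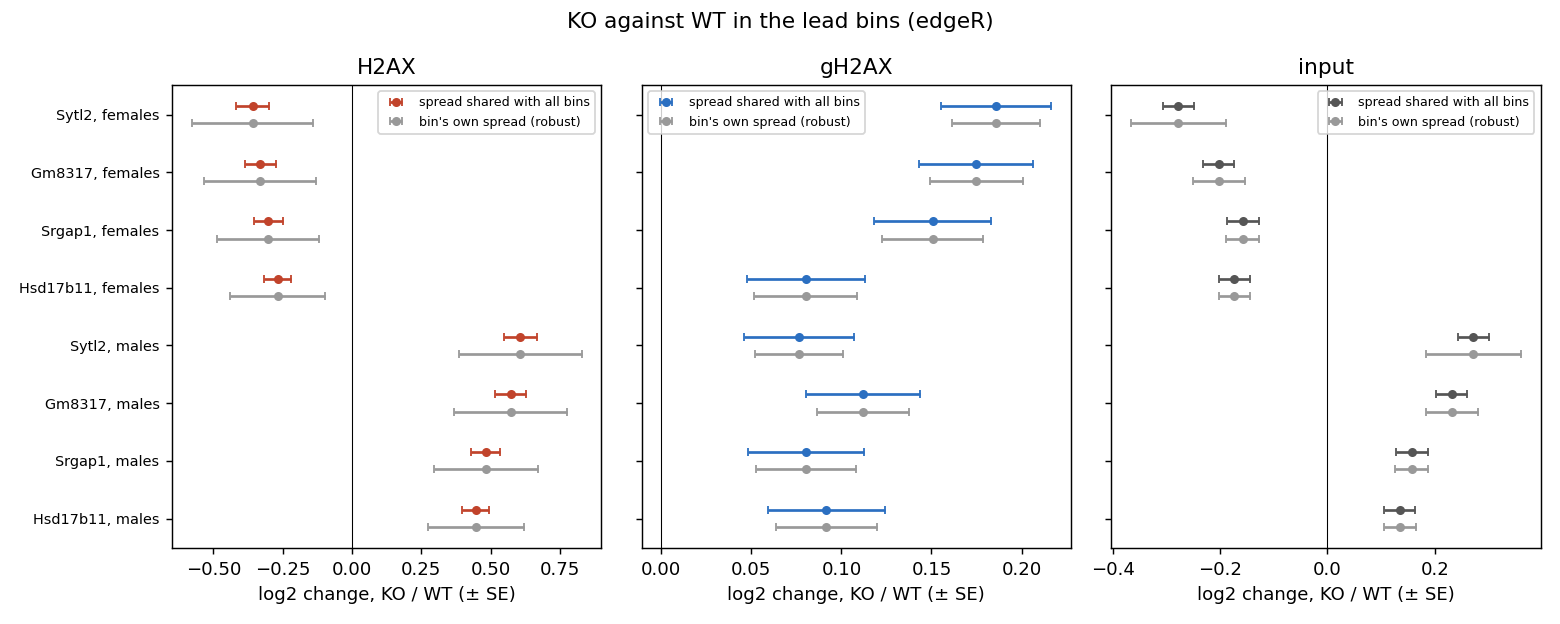
Log2 change of KO against WT in the 4 lead bins for H2AX, gH2AX and input, with SE from the fit that shares spread across bins (coloured) and from the robust fit (grey). H2AX and input are below 0 in females and above 0 in males, and the SE of H2AX grows from 0.05 or 0.06 to between 0.17 and 0.22 in the robust fit.

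The antibody signal relative to input was compared between genotypes in a fit of all libraries. The ratio of mean H2AX to mean input CPM in the Sytl2 bin was 3.35 in female WT, 3.18 in female KO, 2.48 in male WT and 3.15 in male KO, so that male WT stood lowest, and the Hsd17b11 bin gave 2.32, 2.18, 1.85 and 2.33. In females the log2 change of H2AX relative to input was between -0.14 and -0.08 in the lead bins, and edgeR called 0 of the 44, against 0% of all bins. At an unadjusted p under 0.05 in edgeR there were 2 of 44, against 4.93% of all bins, and DESeq2 called 0. In males the change was 0.33 ± 0.06, 0.34 ± 0.06, 0.32 ± 0.06 and 0.31 ± 0.06 (4 of 44, against 0.0311% of all bins). The robust option and DESeq2 ended all 4 of these calls (adjusted p = 0.67 to 0.74 in the robust fit). So did leaving out H2AX male KO replicate 2, H2AX male WT replicate 1, input male KO replicate 1 or input male WT replicate 2.

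The ratio of mean gH2AX to mean input CPM in the Sytl2 bin was 1.68 in female WT, 2.32 in female KO, 1.89 in male WT and 1.65 in male KO, and in the Hsd17b11 bin 1.47, 1.76, 1.52 and 1.48. Relative to input, gH2AX in KO females was higher by 0.46 ± 0.06, 0.38 ± 0.06, 0.31 ± 0.06 and 0.25 ± 0.06 (4 of 44 called, against 0.389% of all bins). These calls ended with the robust option (adjusted p = 0.36 to 0.52) and in DESeq2, and without gH2AX female KO replicate 2 the count was 2. In males 8 of 44 were called (5 higher, 3 lower, against 19.6% of all bins), the Sytl2 bin among them at -0.19 ± 0.06 (adjusted p = 0.0226, and 0.55 with the robust option). With the dependence on enrichment removed, the 4 lead bins were at -0.50, -0.39, -0.33 and -0.27 and were the only ones of the 44 called. Without 1 of the gH2AX or input libraries, 3 to 8 were called. The count was 3 without gH2AX male KO replicate 2, gH2AX male WT replicate 1 or input male KO replicate 2, 4 without input male WT replicate 1, and 5 without gH2AX male KO replicate 1, gH2AX male WT replicate 2 or input male WT replicate 2. The largest changes among the neighbours were 0.20 ± 0.05 in the Ddhd1 bin (45600001), -0.19 ± 0.05 in a Dlg2 bin (90700001) and 0.17 ± 0.05 in a Srgap1 bin (121900001).

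The reads above the local level moved together at the 4 positions. The excess was taken as the level of a lead bin minus the median of its 10 neighbours in the same library. Over the 24 libraries the excess of the Sytl2 bin ranged from 29.6 CPM in input to 295 CPM in H2AX, a 9.95-fold range. Over the same libraries the excess of the chromosome 14 bin stayed at 68.5 ± 2.70% (SD) of that of the Sytl2 bin, the Srgap1 bin at 43.7 ± 1.96% and the Hsd17b11 bin at 37.7 ± 2.27%. Per kind of library the chromosome 14 share was 67.8 ± 0.78% in H2AX, 67.6 ± 1.44% in gH2AX and 70.1 ± 4.09% in input, and the Srgap1 share 44.7 ± 0.83%, 42.5 ± 1.46% and 43.9 ± 2.69%. The 4 lead bins are therefore not 4 independent results, and a group difference in one recurs in the others.

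**Figure D4:**
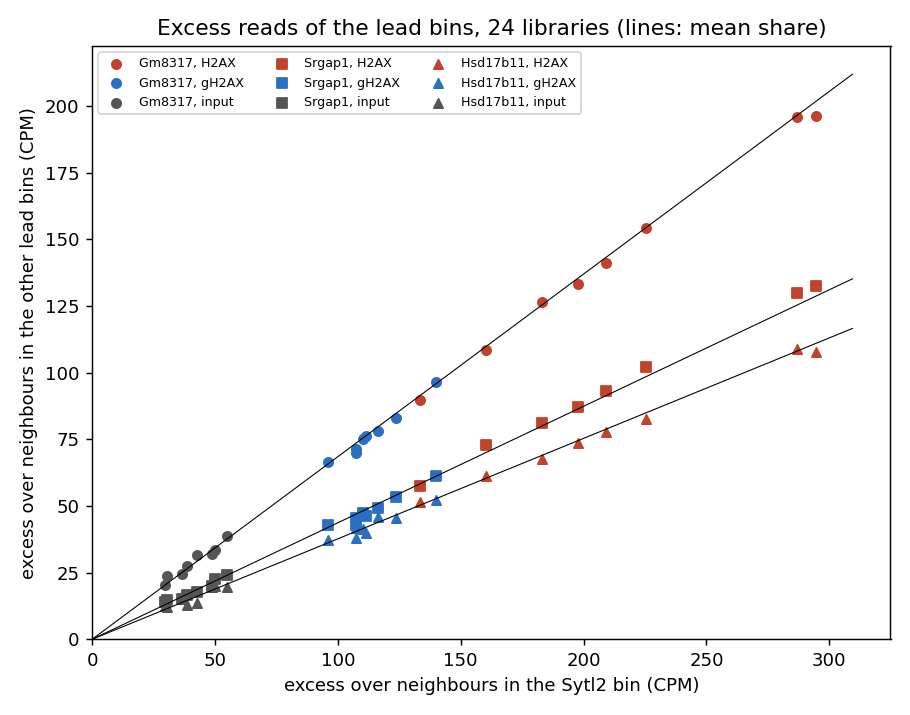
Excess over the neighbours in the chromosome 14 (Gm8317), Srgap1 and Hsd17b11 bins against that in the Sytl2 bin, in CPM, with 1 point per library and bin and lines at the mean shares of 68.5%, 43.7% and 37.7%. The points of H2AX, gH2AX and input fall along the same lines.

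The excess of H2AX was 4.95 to 5.23 times that of input in the 4 lead bins, and the excess of gH2AX 2.66 to 2.75 times. A further 150 bins of the genome had an input excess at least as large as the smallest of the lead bins, 15.7 CPM. In those the H2AX excess had a median of 1.13 times the input excess and a highest value of 2.42, on chromosome 7 at 59700001. The gH2AX excess there had a median of 0.95 and a highest value of 12.2. The rule that chose the lead bins favours such a larger excess of H2AX. Bins with a smaller input excess were not part of that comparison, and ratios of this size occurred there, such as 4.78 in the bin of Amot, 5.76 in that of Commd1, Zrsr1 and Cct4 and 7.45 in that of Setd4, Cbr1 and Cbr3, with input excesses of 8.88, 5.504 and 3.87 CPM.

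**Figure D5:**
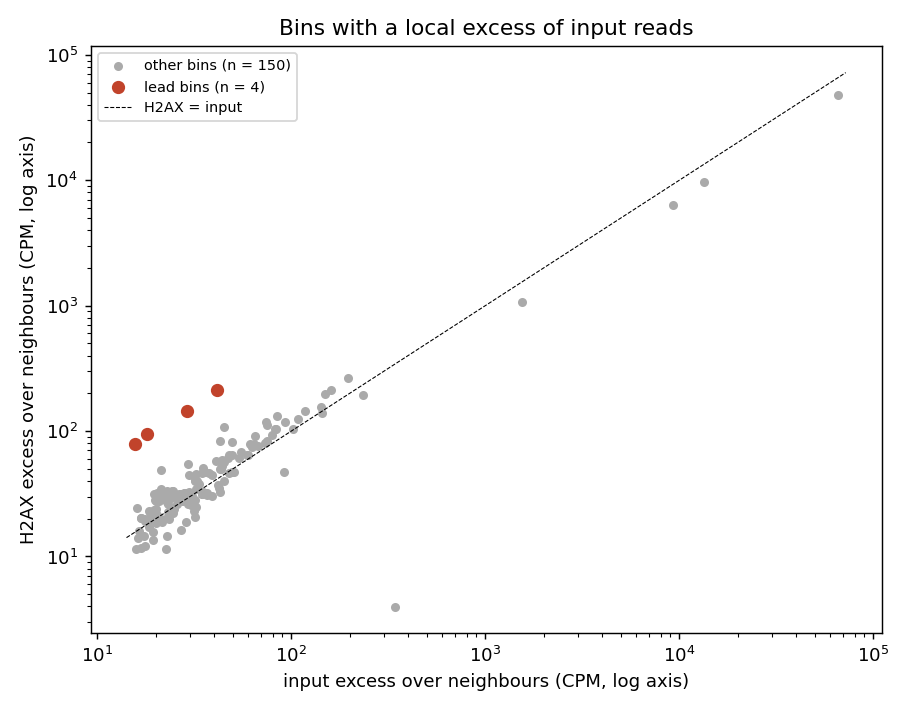
H2AX excess against input excess over the neighbours, in CPM on log axes, for the 4 lead bins (red) and the 150 other bins (grey) with an input excess of at least 15.7 CPM. The dashed line marks equal excess, and the lead bins lie 4.95 to 5.23 times above it.

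Summed over the 4 lead bins, the H2AX excess was 490 ± 44.4 CPM (SD, n = 2) in female KO and 648 ± 118 in female WT, 0.756 times, and 607 ± 162 in male KO and 367 ± 50.4 in male WT, 1.65 times. The input excess was 86.2 ± 7.17 in female KO and 123 ± 4.27 in female WT, 0.701 times, and 122 ± 22.5 in male KO and 85.8 ± 13.5 in male WT, 1.42 times. The gH2AX excess was 327 ± 31.6 in female KO and 276 ± 18.6 in female WT, 1.18 times, and 274 ± 0.047 in male KO and 251 ± 12.8 in male WT, 1.09 times. The libraries of KO and WT did not overlap in any of these 6 comparisons, and the exact two-sided permutation test gave p = 0.333 in each, the smallest that 2 against 2 libraries allow. The neighbours' medians differed between KO and WT by factors of 0.945 to 1.052 over the same comparisons. The ratio of gH2AX excess to H2AX excess in the Sytl2 bin was 0.430 in female WT, 0.671 in female KO, 0.691 in male WT and 0.458 in male KO, and the other 3 lead bins had 0.393 to 0.459, 0.656 to 0.673, 0.670 to 0.687 and 0.430 to 0.460. In the Sytl2 bin the order of the groups in this ratio was that of H2AX turned around. H2AX is the denominator, and its mean excess there was 147 to 260 CPM over the groups, against 102 to 132 CPM for gH2AX. The turned order therefore follows in part from the division.

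The search for like bins covered those outside the 44 that hold a protein-coding gene. The 3 whose level across the 24 libraries was most like that of a lead bin were the same for each lead bin. These were the bin of Commd1, Zrsr1 and Cct4 on chromosome 11 (22900001), that of Setd4, Cbr1 and Cbr3 on chromosome 16 (93600001) and a bin of Cdh13 on chromosome 8 (118800001). Pearson's r of log2 CPM with the Sytl2 bin was 0.995, 0.994 and 0.982, beside 0.998 to 0.999 among the lead bins themselves. Antibody and input libraries differ in level, which raises r, and within the 8 input libraries r with the Sytl2 bin was 0.834, 0.838 and 0.562. Their H2AX/input was 0.70, 0.78 and 0.81, and their gH2AX/input 0.39, 0.45 and 0.38. No p is given for these likenesses, since the bins were picked for them.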

How the data were processed

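The authors deposited raw read counts per 100 kb bin of mm10, with 1 column per library. The submitters' processing notes list Bowtie2 2.2.9, Trimmomatic 0.36, deepTools 2.4.2, SAMtools 0.1.19, MACS2 2.2.7.1 and FastQC 0.11.3. How duplicates and reads with several alignments were handled is not given in the sources used here. A further 24 columns matched no labelled sample and were not used.

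The tests used edgeR 4.0.16 under R 4.3.3 (TMM on autosomal bins, filterByExpr, 1 mean per group, quasi-likelihood F test, two-sided). H2AX, gH2AX and input were fitted separately, and ratios between them in a fit of the 24 libraries. P-values were adjusted by Benjamini-Hochberg over 25702 (gH2AX) or 25703 bins, and a bin was called under 0.05. Each SE was derived from the log2 change and its F value. The fit was tested on simulated data in which every bin had the same small spread. The lead bins vary more than that in H2AX, so the simulation does not bear on the calls there. Alternatives were DESeq2 1.42.0, RLE size factors, no filter, only the compared groups, removal of a lowess trend on enrichment (span 0.3), a replicate block, each library left out and, chosen after seeing the data, a robust spread.

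The bins, members and gene lists were chosen with earlier results of these data known. The text names the 4 lead bins and the protein-coding genes of the 44 bins. It names the called neighbours (the 3 largest changes where more were called) and the highest and lowest neighbour in H2AX/input. The next 4 bins in rank are named too, and, among bins with a protein-coding gene, the 3 most like each lead bin. Other bins named were chosen after their values were seen. The text does not report the single values of 2 bins that these rules name. Genes come from the RefSeq annotation of GRCm38.p6 and are named for each bin they overlap; in the gene lists a gene counts in the bin that holds most of its body. No labels of batch or date were given.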

Additional observations from a re-analysis of the deposited data

Results flagged for a closer look

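Results are listed here where the effect of KO in females differed from that in males by the interaction test at an adjusted p under 0.05. For H2AX these were the 4 lead bins, with a difference (females minus males, log2) of -0.97 at Sytl2, -0.90 on chromosome 14, -0.79 at Srgap1 and -0.71 at Hsd17b11, all of which ended with the robust spread and in DESeq2. Input was not part of that test. Like H2AX, input in the lead bins was lower in KO females and higher in KO males.

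For gH2AX the comparison called 40.5% of all bins, so single calls carry little. The count of 15 fell to 9 without gH2AX male KO replicate 1, to 6 without male KO replicate 2 and to 6 without male WT replicate 1. At the chromosome 7 locus the values were -0.18 (90000001), 0.17 (90100001, Picalm), -0.15 (90300001, Sytl2), 0.11 (90400001, the lead bin) and 0.13, 0.18 and 0.16 in 3 Dlg2 bins (90700001, 90800001 and 90900001). On chromosome 14 they were -0.12 in the bin of Ero1a, Psmc6, Styx and Gnpnat1 (45300001) and -0.12 in that of Fermt2 and Ddhd1 (45500001). Around Srgap1 they were -0.13 with Rassf3 (121400001), -0.13 with Tbk1 and Xpot (121500001), and -0.18 and -0.16 in 2 Srgap1 bins (121800001 and 121900001). At the chromosome 5 locus the Ptpn13 bin (103500001) had -0.14. Groups of 2 libraries cannot be examined for a library that stands apart.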

How the results depend on the processing

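Counts are bins called of the 44. With the robust spread, chosen after seeing the data, H2AX in females, H2AX in males and the H2AX interaction went from 4 to 0, H2AX between the sexes from 5 to 1, H2AX to input in males and gH2AX to input in females from 4 to 0, and input from 4 to 2 in either sex. A robust spread with the replicate block gave 0, 0, 0, 1, 0 and 0 for the first 6. DESeq2 gave 0 for the same 3 H2AX counts, 1 for H2AX between the sexes, 0 for both ratios, 1 and 0 for input in females and males, and, for gH2AX, 1 in females, 12 in males and 7 for the interaction. Removing the trend on enrichment gave 3 for gH2AX in males, 5 for its interaction and 4 for gH2AX to input in males. It turned the male gH2AX change to -0.18, -0.11, -0.13 and -0.10 in the lead bins and the Hsd17b11 interaction to 0.24.

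Leaving out 1 library gave 0 to 4 for H2AX in females, 2 to 5 for H2AX between the sexes, 0 to 3 for gH2AX in females, 4 to 12 in males, 6 to 16 for the gH2AX interaction, 2 to 4 for input in females, 2 to 4 in males, 0 to 1 between the sexes, 0 to 4 for H2AX to input in males, 2 to 4 for gH2AX to input in females and 3 to 8 in males. It left H2AX in males and the H2AX interaction at 4. A group with 1 library left is assumed to vary like the others. RLE size factors, no filter and the compared groups alone moved none of the counts by over 1.5 times.

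Outside the lead bins, the replicate differences of groups of the same kind of library correlated at -0.03 to 0.06, and none of the pairs reached 0.1. Libraries of different kinds were not compared in this way. Most bins differed little between the libraries of a group, so low correlations cannot settle whether the replicate numbers pair the libraries. With the replicate block, H2AX kept 4 calls in females and 4 in males, gH2AX 3 and 19, and gH2AX to input in males went from 8 to 9, with the chromosome 14 bin passing the threshold (adjusted p = 0.0457). In the lead bins the library numbered 2 had the larger excess in 16 of 16 group values of H2AX, 16 of 16 of input and 14 of 16 of gH2AX, which are 4 bins that move together in each of 4 groups and not 16 independent values. Depth does not limit the lead bins, where counting error is at most 1.45%; 2 libraries per group do. The cause of each change was not tested.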

Other observations

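A bin of Amot, an X-linked regulator of Hippo signalling and cell migration, shared the constant proportion of the lead bins. Of the 1556 bins above the median of their neighbours in all 24 libraries, the Sytl2 bin served as the reference, and 4 others kept an excess within a coefficient of variation of 10% relative to it. These were the other 3 lead bins and the Amot bin (chromosome X, 145500001 to 145600000), at 7.22%, with 21.0% of the Sytl2 excess. The median coefficient over the others was 70.3%, and the next were the bins of Commd1, Zrsr1 and Cct4 at 11.6% and of Cdh13 at 16.9%. The Amot bin was noticed in this ranking and not chosen by a rule on its gene.

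Male cells carry 1 X chromosome, and the neighbours of the Amot bin held 0.540 (H2AX), 0.547 (gH2AX) and 0.561 (input) of the female level in males. The share of the Sytl2 excess found in the Amot bin was 20.3 ± 0.546% (SD, n = 4) in female and 19.7 ± 1.203% in male H2AX libraries, 21.9 ± 0.487% and 21.5 ± 0.676% in gH2AX, and 20.9 ± 2.50% and 21.7 ± 1.96% in input. In gH2AX and input the sexes differed in this share by less than the SD of either sex, and in H2AX by slightly more than the female and less than the male SD. What the excess reads are was not tested, since no genome sequence of these bins was used here.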
